A study of Arabidopsis thaliana with 24 samples.

Results

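Light genes released in dark cop1-6 are probe sets that blue light raised in wild-type Arabidopsis seedlings and that were already raised in cop1-6 seedlings kept in darkness. They were chosen by measured values: with group means of signal under 20 set to 20, the wild-type (WT) mean in blue light was at least 6 times that in darkness, the cop1-6 mean in darkness was at least 6 times the WT mean in darkness, and the WT mean in blue light was less than 3 times that in blue light with abscisic acid (ABA). Of 22810 probe sets, 420 not annotated as plastid-encoded met the light criterion, 81 of these also met the release criterion, and 66 met all 3. A further 34 probe sets that met all 3 were left out as plastid-encoded. The supplied annotation gives 27 of the 66 members 1 gene, 2 members several genes and 37 members no gene. Most are therefore called here by their probe set, and whether those 37 are nuclear genes is not given.

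Signals came from 24 Affymetrix arrays of Columbia seedlings, taken at an age of 10 days and kept at 22 °C throughout. The lines were WT, the atmyc2 mutant, the cop1-6 mutant and the mutant carrying both, atmyc2 cop1-6, called the double mutant. Each grew in constant darkness, in constant blue light of 35 µmol per s per m2, or in that light on medium with ABA at 0.5 (unit written as µm in the labels), with 2 biological replicates for each of 12 groups. No label names an allele of atmyc2 or says whether replicates were separate cultures, so p-values measure only the spread between replicate samples, pooled over the 12 groups by the fit, and part or all of that spread could be technical. The low number of arrays limits precision.

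COP1 is an E3 ubiquitin ligase that, in darkness, marks transcription factors promoting light responses for degradation, among them the bZIP factors HY5 and HYH. Light inactivates COP1 through the photoreceptors, these factors accumulate, and genes of chloroplast function are transcribed. The cop1-6 allele is a partial loss of function, and such seedlings open their cotyledons and stay short in darkness. AtMYC2, a transcription factor with a basic helix-loop-helix domain, acts in jasmonate, ABA and light signalling.

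The mean signal without the lowest and highest 2% of values was the same on every array, and replicates correlated with r from 0.914 (cop1-6 with ABA) to 0.986 across probe sets, which are not independent replicates. Poly-A control signals averaged 923 to 1020 in dark WT and atmyc2 and 223 to 368 in dark cop1-6 and the double mutant. They averaged 4.47 to 13.3 on the blue light arrays and 85.3 to 137 on those with ABA. Array handling therefore cannot be told apart from growth condition, nor, in darkness, from the presence of cop1-6. Marker genes of organs and cell types were sparsely annotated: 3 of 9 stomatal loci, 2 of 9 root loci, 1 of 5 shoot apex loci and 0 of 9 seed loci had a probe set with 1 gene.

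On the arrays that chose them, the members ran from 6.61 to 120 times higher in WT blue light than in WT darkness, with a median of 19.1, and from 6.0 to 20.4 times higher in dark cop1-6 than in dark WT, with a median of 7.48. The ratio of WT blue light to WT blue light with ABA ran from 0.0978 to 2.87, with a median of 1.47. These ratios follow from the choice and are given as a description. Median member signal was 39.8 in dark WT, 379.0 in dark cop1-6 and 919.5 in WT blue light, and 10 members had a dark WT mean under 20. In dark cop1-6 the members stood at 13.2% to 112% of their WT blue light mean, with a median of 41.5%, and 4 members exceeded that mean.

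**Figure D1:**
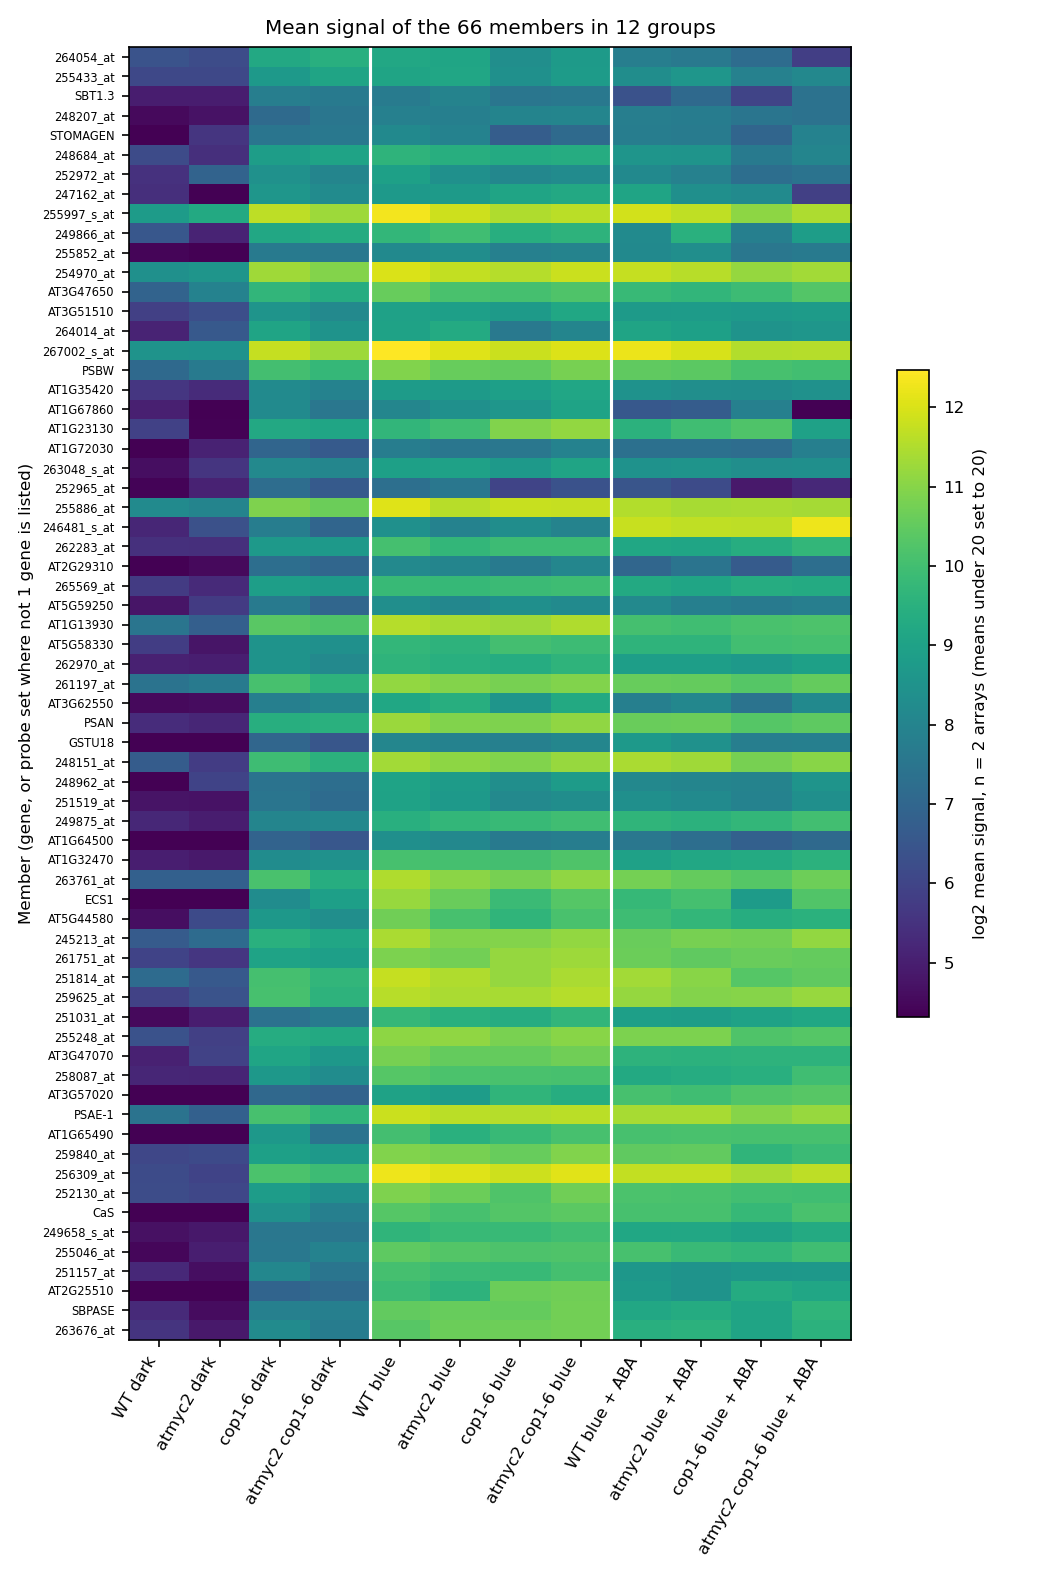
Each row is a member and each column 1 of the 12 groups, with colour giving the log2 of the mean signal of 2 arrays (means under 20 set to 20). Rows are ordered by the dark double mutant mean as a percent of the atmyc2 blue light mean, highest first. The dark columns of cop1-6 and the double mutant are brighter than those of WT and atmyc2.

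Probe sets nearest each threshold show that the rule cut finely for release, but less so for light and ABA. Just inside the light criterion stood SBT1.3 at 6.61 times, 264054_at at 7.02 and 252965_at at 7.52, while AT5G18600 at 5.74, 267376_at at 4.03 and AT2G43620 at 2.37 fell outside. For release, SBPASE at 6.0, 246481_s_at at 6.01 and AT1G64500 at 6.04 were inside, and AT1G12250 at 5.99, 245701_at at 5.93 and AT1G49750 at 5.88 were outside. For the ABA criterion, AT1G13930 at 2.87, AT1G67860 at 2.85 and 249866_at at 2.85 were inside, and AT5G38980 at 3.52, 258607_at at 3.68 and GSTU20 at 3.94 were outside.

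The first question put to arrays the rule did not use was whether cop1-6 raised the members in darkness when AtMYC2 was also missing. Members stood higher in the dark double mutant than in dark atmyc2 for all 66, with both arrays of one group above both arrays of the other. Median member signal was 41.7 in dark atmyc2 and 318.5 in the dark double mutant, and the ratio of group means (floor 20) ran from 1.55 to 26.7 with a median of 7.0. It reached 6 for 42 members and 2 for 65. The overlap and ratio counts were not made over all probe sets, so they have no background share. By limma with Benjamini-Hochberg adjustment over 16196 probe sets, 65 members were higher and 0 lower, whereas 28.8% of all probe sets tested were called higher and 16.2% lower. The median log2 difference was 2.85 in members and 0.20 in all probe sets tested. Since quantile normalization of the arrays lowered the latter median by 0.14, the members' difference is best read against it, and 65 were called under that scaling too.

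Photosystem subunits made up 3 of the 9 members with a gene symbol. PSAN, a subunit of photosystem I, read 31.0 and 42.3 in dark atmyc2 and 716.5 and 725.2 in the dark double mutant. Its groups were far apart, at a log2 difference of 4.28 ± 0.15 (SE; limma adjusted p = 3.2e-12). PSAE-1, another photosystem I subunit, read 102.3 and 122.4 against 786.0 and 861.4, a log2 difference of 2.87 ± 0.17 (limma adjusted p = 6.25e-10). PSBW, a small subunit of photosystem II, read 209.5 and 192.9 against 767.4 and 959.0, the smallest separation of the 3, at 2.09 ± 0.17 (limma adjusted p = 2.79e-08). Of the photosystem loci listed, 5 had a probe set with 1 gene, and all 5 were higher, although only these 3 are members.

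The other 2, PSBY and PSB27, missed both the light criterion, at 5.87 and 4.46 times, and the release criterion, at 2.84 and 2.37 times the dark WT mean. Listed loci are called measured here where a probe set is annotated with that gene alone. Others could lie among the 8794 probe sets with no gene listed. Among related genes, the Calvin cycle list had 3 measured loci, of which SBPASE is the 1 member and RCA and PRK the others. All 3 were higher. The photorespiration list had 2 of 3 higher and the chlorophyll synthesis list 6 of 7, none of these listed loci a member. Members on no list, such as AT1G32470, were not sorted by role, so these counts do not show that a pathway is absent from the members. Of the 3 antenna genes measured, LHCB4.2 rose by a log2 of 0.75 and LHCB4.3 fell by 1.17, while LHCB4.1 did not pass at 0.34. HYH, the 1 measured light signalling gene, rose by 3.76 from a mean of 0.4 to 17.9, both under the dim level of 19.1 (the 40th percentile of all values), so the size depends on the pseudocount of 1.

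Among the 9 members with a gene symbol, carbon fixation and chloroplast calcium signalling were represented by 1 member each. SBPASE, the sedoheptulose-bisphosphatase of the Calvin cycle, read 28.0 and 20.6 in dark atmyc2 and 229.6 and 228.4 in the dark double mutant, a log2 difference of 3.20 ± 0.20 (limma adjusted p = 1.09e-09). CaS, a calcium sensing receptor of the thylakoid membrane, read 9.4 and 19.8 against 196.9 and 256.5. The CaS groups lay clearly apart at 3.94 ± 0.27 (limma adjusted p = 4.38e-09), or 2.87 with a pseudocount of 19.1 in place of 1. AT5G58330, listed as an NADP-dependent malate dehydrogenase, the enzyme that exports reducing power from the chloroplast as malate, read 36.2 and 18.8 against 318.2 and 366.9, at 3.66 ± 0.22 (limma adjusted p = 9.72e-10).

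ECS1 had the greatest log2 difference of the members here. Its probe set read 3.9 and 1.3 in dark atmyc2 and 425.6 and 549.5 in the dark double mutant, after 0.4 and 1.4 in dark WT and 287.4 and 343.5 in dark cop1-6. The transcript was near the bottom of the scale in darkness wherever COP1 was intact and well above the dim level in both cop1-6 lines. The log2 difference of 7.17 ± 0.37 (limma adjusted p = 5.26e-10) shrank to 4.54 at a pseudocount of 19.1, because the dark atmyc2 level is so low.

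STOMAGEN (also EPFL9), a secreted peptide made in inner leaf tissue that promotes stomata, read 53.7 and 42.6 in dark atmyc2 and 177.9 and 206.7 in the dark double mutant. The difference of 1.98 ± 0.29 on the log2 scale (limma adjusted p = 2.43e-05) was among the smaller ones, and dark atmyc2 was itself 2.41 times dark WT. SBT1.3, a subtilisin-like protease, read 24.2 and 38.2 against 224.5 and 177.6, at 2.67 ± 0.63 (limma adjusted p = 0.00276). Its dark cop1-6 arrays, at 110.2 and 336.2, were the least alike of any member's, so the release that chose it rests on an uneven pair. GSTU18, a tau class glutathione S-transferase, read 21.4 and 12.7 against 83.1 and 96.9, at 2.37 ± 0.23 (limma adjusted p = 2.15e-07).

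**Figure D2:**
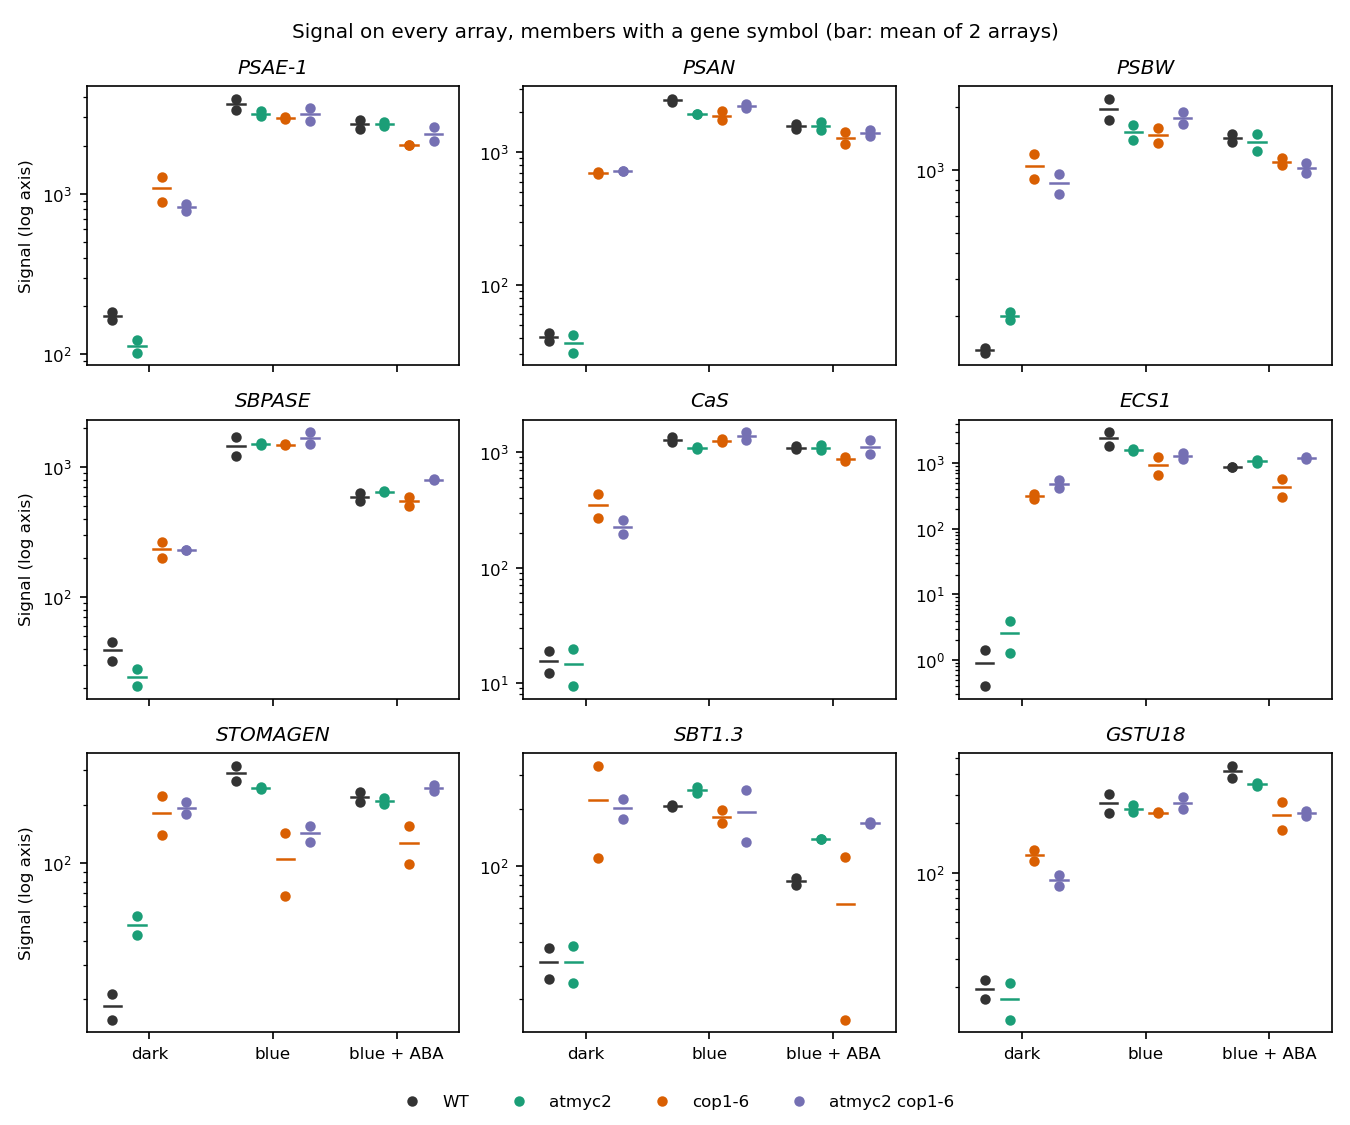
Signal on each array (points, log axis) and group mean (bars, n = 2) for the 9 members with a gene symbol, by growth condition and line. In darkness both cop1-6 lines lie above WT and atmyc2 in all 9 panels, and STOMAGEN and SBT1.3 show little or no further gain in blue light in those lines.

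The single uncalled member, 246481_s_at, matches KIN1 and KIN2, cold and ABA induced genes that the probe set cannot tell apart. It read 78.9 and 83.7 in dark atmyc2 and 107.0 and 145.3 in the dark double mutant. The arrays did not overlap, but the log2 difference of 0.61 ± 0.41 did not pass (limma adjusted p = 0.243). Its mean in dark WT was 36.8, and the dark atmyc2 level was 2.21 times that of WT.

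Between the dark lines with COP1 intact, the members were close to each other. The ratio of atmyc2 to WT in darkness ran from 0.343 to 3.03 with a median of 1.0, 7 members reached 2 times, 4 were at or below a ratio of 0.5, and 0 reached 6 times. Between the cop1-6 lines in darkness, the double mutant had a median of 0.821 of the cop1-6 level, within 0.421 to 1.55. The values of WT and cop1-6 chose the members, so these ratios carry no test.

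Root and stomatal marker signals differed between the dark lines lacking AtMYC2. The root hair expansins EXPA7 and EXPA18 were the only root markers with a probe set annotated with 1 gene. They summed to 152 to 161 in dark atmyc2 and 5.5 to 13.9 in the dark double mutant, and both were called lower. In dark WT and cop1-6 the same sum was 57.1 to 137 and 42.5 to 71.7, which overlapped. SPCH, MUTE and FMA, transcription factors of the stomatal lineage, summed to 10.0 to 18.7 in dark atmyc2 and 44.8 to 49.0 in the dark double mutant, both tested ones being called higher. WT gave 32.6 to 34.1 and cop1-6 31.6 to 50.6, again overlapping. CLV3, the apex marker, was at 0.3 to 5.7 on every array. In seedling RNA, fewer cells of a type and less RNA per cell cannot be told apart, and the part of organ makeup in the members' levels was not tested. The log2 ratio of 3' to 5' GAPDH signal, a sign of RNA quality, was 0.97 and 1.02 in dark atmyc2 and 0.66 and 0.51 in the dark double mutant, and its part was not tested either.

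How far blue light raised the members was tested in both lines lacking AtMYC2. In atmyc2, all 66 members were higher in blue light than in darkness by limma, against 34.4% of all probe sets tested, with a median log2 difference of 4.48 against 0.28 in all of them. Quantile normalization lowered the latter by 0.27 and still called 66. In the double mutant, 50 members were higher and 0 lower, against 19.9% and 19.4% of all probe sets, with a median of 1.43 and a range from -0.87 to 3.57. Both arrays in blue light exceeded both in darkness for 56 members, a count that was not made over all probe sets. Other signals moved from darkness to blue light in the same lines. Root marker sums in blue light were 23.4 to 50.1 in atmyc2 (152 to 161 in darkness) and 22.0 to 78.5 in the double mutant (5.5 to 13.9 in darkness). Stomatal sums in blue light were 73.9 to 79.9 in atmyc2 (10.0 to 18.7 in darkness) and 80.8 to 87.5 in the double mutant (44.8 to 49.0 in darkness). The GAPDH log2 ratio in blue light was 0.48 and 0.53 in atmyc2 and 0.63 and 0.39 in the double mutant, beside the dark values above. The part of these markers, of RNA quality and of the poly-A control level in the counts was not tested.

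The difference of the light effects compares these gains directly. It equals the cop1-6 effect in blue light minus that in darkness, and so shares the dark arrays of both lines with the comparisons above. In 65 members the gain was smaller in the double mutant than in atmyc2 and in 0 members it was greater, whereas 19.1% of all probe sets had a smaller and 8.41% a greater gain. The median difference was -2.90 in members and -0.22 in all probe sets tested, a value that quantile normalization raised by 0.13 while calling 63 members. The exception was 246481_s_at at -0.71 ± 0.58 (limma adjusted p = 0.394).

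Named members differed in how much light still added. ECS1 gained 8.87 ± 0.37 on the log2 scale in atmyc2, from 3.9 and 1.3 to 1508.9 and 1622.5, and 1.4 ± 0.37 in the double mutant, where blue light read 1405.4 and 1162.5 (limma adjusted p = 3.48e-12 and 0.00648). SBPASE gained 2.87 ± 0.20 in the double mutant (limma adjusted p = 8.52e-09), second to AT2G25510 at 3.57 among members with 1 gene, going from 229.6 and 228.4 in darkness to 1519.5 and 1856.2. Blue light had raised it in atmyc2 to 1545.2 and 1477.8. Both lines thus ended at overlapping levels of SBPASE although they started a log2 of 3.20 apart.

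CaS read 1486.7 and 1266.2 in the double mutant in blue light and 1116.8 and 1067.4 in atmyc2, a difference of 0.33 ± 0.27 that did not pass (limma adjusted p = 0.51). Its light gains were 2.60 ± 0.27 and 6.22 ± 0.27. Among photosystem subunits, the gain in the double mutant was 1.92 ± 0.17 for PSAE-1, 1.63 ± 0.15 for PSAN and 1.05 ± 0.17 for PSBW, each called, and in atmyc2 4.81, 5.70 and 2.91. PSAN reached 2319.3 and 2159.9 in the double mutant in blue light. Subunits of the same complexes therefore kept a light gain on top of the released dark level. GSTU18 gained 1.56 ± 0.23 in the double mutant and 3.82 ± 0.23 in atmyc2, both called.

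For 16 members blue light added nothing that passed in the double mutant. STOMAGEN read 177.9 and 206.7 in darkness and 155.3 and 129.0 in blue light there, lower on both arrays, with a log2 difference of -0.44 ± 0.29 that did not pass (limma adjusted p = 0.247). In atmyc2 the same gene went from 53.7 and 42.6 to 246.2 and 241.8, a gain of 2.33 ± 0.29 (limma adjusted p = 1.97e-06). The difference of these effects, -2.76 ± 0.41, passed (limma adjusted p = 8.93e-05). STOMAGEN in cop1-6 read 140.0 and 220.7 in darkness and 67.6 and 142.3 in blue light, and those arrays overlapped.

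SBT1.3 read 224.5 and 177.6 in the dark double mutant and 252.0 and 133.4 in blue light, an overlapping pair of groups with a difference of -0.12 ± 0.63 (limma adjusted p = 0.896). AT1G67860 at 1.52 ± 0.67 and AT2G29310 at 1.01 ± 0.41 were the other 2 uncalled members with 1 gene, with limma adjusted p = 0.0863 and 0.0593. The lowest difference belonged to 264014_at, whose blue light arrays in the double mutant, at 87.2 and 440.2, bracketed the dark values of 294.5 and 440.0. Of the probe sets without a gene, 264054_at read 626.4 and 773.1 in darkness and 474.3 and 385.4 in blue light, with no overlap, at -0.70 ± 0.34 (limma adjusted p = 0.117). A p that misses the threshold does not show that light left these members unchanged.

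The level reached in darkness can also be put as a share of the blue light level of the line with COP1 intact. In the double mutant it ran from 13.5% to 125% of the atmyc2 blue light mean, with a median of 38.5%, and in cop1-6 from 13.2% to 112% of the WT mean. At least 50% was reached by 26 members in the double mutant and 27 in cop1-6. The 16 members with no called light gain in the double mutant lay at 49.8% to 125% (median 68.4%) and the 50 called ones at 13.5% to 59.4% (median 32.7%), which follows in part from the shared dark double mutant arrays. Between the lines the log2 shares correlated across members with Pearson's r of 0.87 and Spearman's rho of 0.91 (n = 66), a description over probe sets whose cop1-6 and WT values chose them.

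Shares differed among members of like role. SBPASE stood at 15.9% in cop1-6 and 15.2% in the double mutant, CaS at 27.2% and 20.8%, PSAE-1 at 29.9% and 26.0%, and PSAN at 28.4% and 37.3%. PSBW was higher, at 53.5% and 56.8%, so subunits of the photosystems did not share 1 release level. STOMAGEN at 62.3% and 78.8% and SBT1.3 at 108% and 79.7% were near the top, and ECS1 went from 13.2% in cop1-6 to 31.1% in the double mutant. For ECS1 the WT blue light arrays, at 2956.5 and 1826.7, lay above both atmyc2 ones, and both dark double mutant arrays lay above both dark cop1-6 ones.

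**Figure D3:**
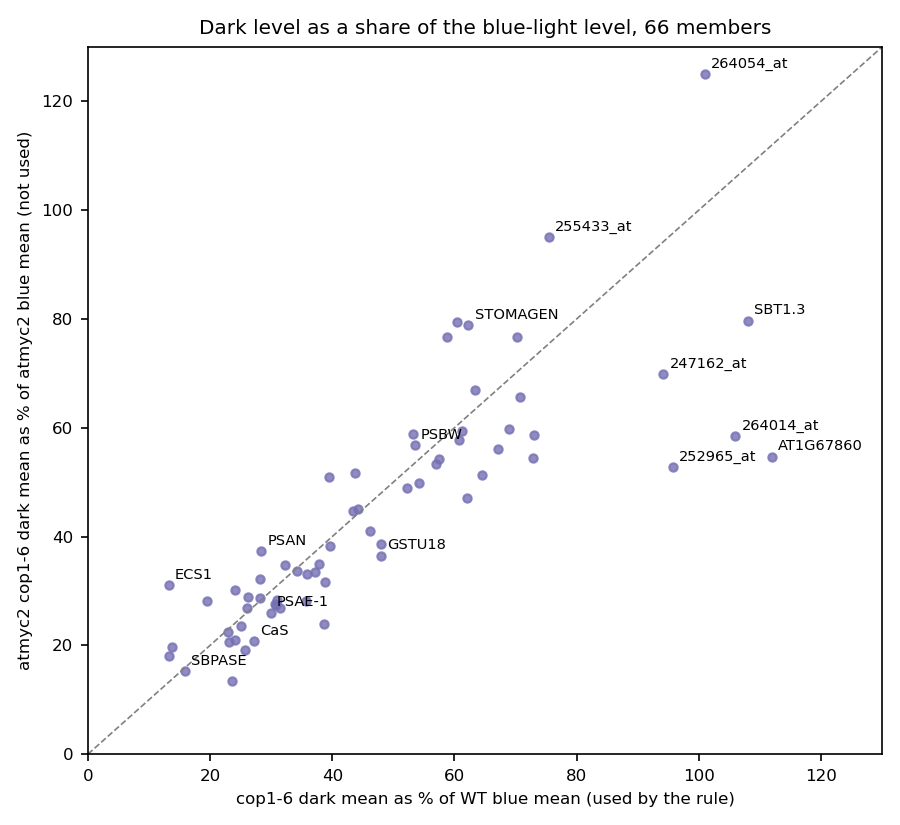
Each point is a member, with the dark cop1-6 mean as a percent of the WT blue light mean on the x axis and the dark double mutant mean as a percent of the atmyc2 blue light mean on the y axis; the dashed line marks equal shares. Shares run from about 13% to over 100% on both axes, with SBPASE near the bottom and SBT1.3, 264054_at and 255433_at near the top.

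The release of the members in the double mutant can be set against 45 light genes that stayed under 2 times dark WT in dark cop1-6 (floor 20). These 45 also met the ABA criterion of the rule. A further 15 light genes were released but lowered at least 3 times by ABA in WT. Dark WT means lay under 20 for 34 of the 45, so many counted as low partly through the floor. CHLI2, among the 45, had means of 9.6 in dark WT and 29.8 in dark cop1-6. The ratio of dark double mutant to dark atmyc2 (floor 20) had a median of 7.0 in members, 2.08 in the 45 and 8.22 in the 15. It reached 6 for 42 of 66, 1 of 45 and 10 of 15. Dark atmyc2 means lay under the floor of 20 for 38 of the 45 low genes but for 10 of the members, so the floor limits the ratio mostly in the former, and 40 of the 45 were still called higher. Without the floor, the median log2 difference was 2.02 in the 45 and 3.06 in the 15. These sets were cut on cop1-6 itself and the contrast between them carries no test.

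Light still raised the 45 low genes in the double mutant in every case (45 of 45 called, median log2 2.60), members in 50 of 66 (1.43), and the 15 ABA-lowered ones in 4 with 1 lower (0.35). The smaller gain in the double mutant than in atmyc2 was called for 26 of the 45 with 1 greater, for 65 of 66 members and for 14 of the 15.

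**Figure D4:**
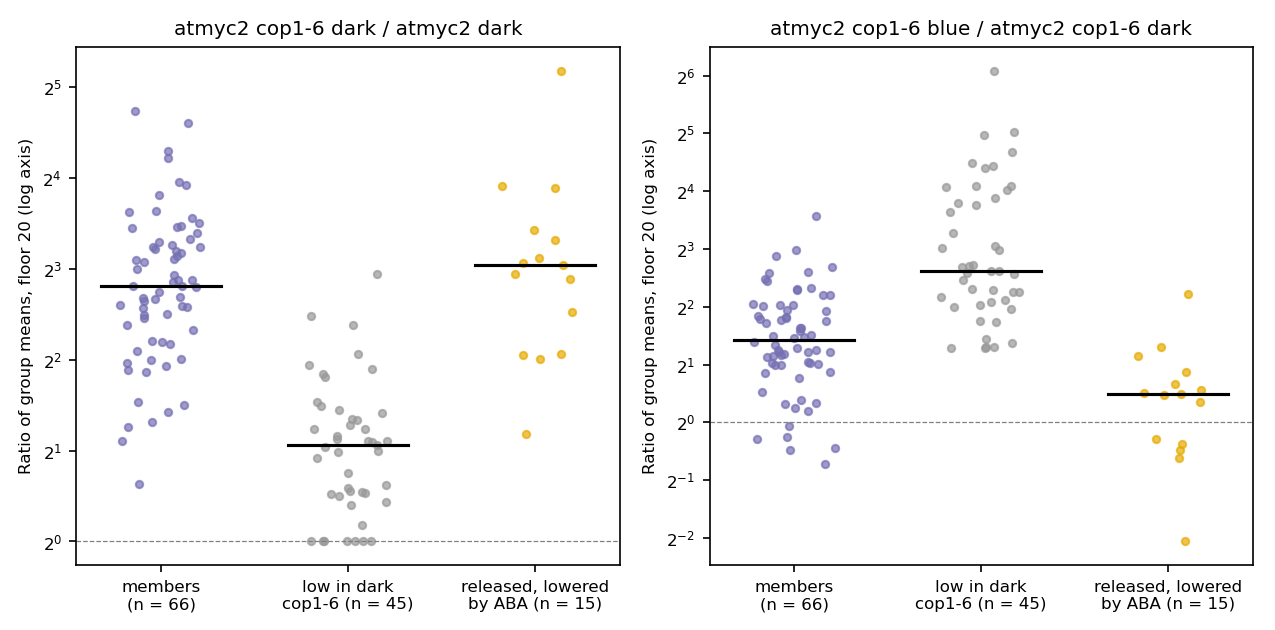
Ratios of group means (floor 20, log axis) for dark double mutant over dark atmyc2 (left) and for blue light over darkness in the double mutant (right), with each point a probe set and bars the medians. Members have medians of 7.0 and 2.69, light genes low in dark cop1-6 of 2.08 and 6.17, and released genes lowered by ABA of 8.22 and 1.41.

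In blue light itself the cop1-6 mutation left few called differences. Between the double mutant and atmyc2, 1 member was higher and 1 lower, against 4.13% and 5.52% of all probe sets tested, with a median log2 of 0.10. AT2G25510 was higher, at 1553.7 and 1797.0 against 733.0 and 814.6 (1.11 ± 0.22, limma adjusted p = 0.00442), and 252965_at lower, at 92.1 and 72.4 against 155.6 and 215.8 (-1.16 ± 0.31, limma adjusted p = 0.0223). Neither pair of groups overlapped. Leaving out atmyc2 blue light replicate 1 left 0 calls (5 at an unadjusted p under 0.05 in limma), and leaving out replicate 2 left 1. With only the compared arrays in the fit, 2 were higher and 0 lower, so 252965_at did not pass there.

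In the lines with AtMYC2, the cop1-6 to WT ratio in blue light ran from 0.363 to 2.38 with a median of 0.822, and 15 members were above WT. STOMAGEN had the lowest ratio, with 67.6 and 142.3 in cop1-6 against 316.2 and 262.8 in WT, and AT1G23130 the highest, with 2017.9 and 1904.0 against 616.4 and 1034.4. In the double mutant AT1G23130 was again high, at 2585.4 and 1969.3 against 953.7 and 1064.8 in atmyc2, but 1.16 ± 0.36 did not pass (limma adjusted p = 0.0511). Within cop1-6, 8 members had a lower mean in blue light than in darkness. High WT blue light and dark cop1-6 means chose the members, so the ratio to WT and this count may partly follow from it. On arrays the rule did not use, the ratio of double mutant to atmyc2 in blue light had a median of 1.07.

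Because the rule admitted only members that ABA lowered less than 3 times in WT, the ABA response was tested in the other lines. In atmyc2, 20 members were lower with ABA and 1 higher, against 11.1% and 10.7% of all probe sets. In cop1-6, 24 were lower and 1 higher, against 7.58% and 5.87%, and in the double mutant 26 were lower and 1 higher, against 13.4% and 9.93%. Median log2 differences were -0.43, -0.51 and -0.56, beside 0.03, -0.01 and -0.03 in all probe sets tested. Over these 3 lines, 11 members were lower in each, 37 in at least 1, and 28 were called in none. These joint counts were not made over all probe sets, and the shares for single lines do not give them. The blue light and ABA arrays differed in poly-A control level, and so did the probe set for 25S ribosomal RNA, with 28.5 to 96.3 in blue light against 769.5 to 2762.5 with ABA. Stomatal marker sums with ABA were 25.6 to 26.5 in atmyc2, 21.5 to 28.9 in cop1-6 and 15.7 to 21.6 in the double mutant. Without ABA the sums were 73.9 to 79.9, at least 87.6, and 80.8 to 87.5 in the same order, and both tested markers were called lower in each line. The part of these controls and markers in the counts was not tested.

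SBPASE was among the 11, falling by 1.22, 1.46 and 1.07 in atmyc2, cop1-6 and the double mutant (limma adjusted p = 0.000252, 8.94e-05 and 0.000666). In cop1-6 it read 1484.5 and 1503.7 in blue light and 500.6 and 589.1 with ABA, and groups were apart in each line. The other 4 with 1 gene were AT1G13930, AT2G25510, AT3G47070 and AT3G62550, which fell by 0.98 to 1.56. AT1G13930, the second brightest member with 1 gene in WT blue light, read 3102.8 and 2664.2 in the double mutant in blue light and 1154.9 and 1167.1 with ABA. The photosystem subunits changed less: PSAE-1 passed in cop1-6 (-0.57 ± 0.17), PSAN in cop1-6 (-0.56 ± 0.15) and the double mutant (-0.68 ± 0.15), and PSBW in the double mutant (-0.79 ± 0.17), with limma adjusted p = 0.0279, 0.0217, 0.00366 and 0.0023.

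KIN1 and KIN2 (246481_s_at) went the other way. That probe set read 199.8 and 292.0 in atmyc2 in blue light and 3158.6 and 3446.1 with ABA, a log2 rise of 3.77 ± 0.41 (limma adjusted p = 1.15e-05). Rises of 3.14 in cop1-6 and 4.45 in the double mutant passed as well, although the cop1-6 arrays with ABA were uneven at 4759.1 and 1658.0. In WT, part of the rule, it went from 423.4 and 262.9 to 3326.5 and 3687.5, and the criterion on ABA admits such a gene because it only limits a fall. AT3G57020 also had higher means with ABA, by 1.15, 0.60 and 1.01, but none passed. GSTU18, higher with ABA in WT at 380.9 and 448.7 against 301.8 and 231.7, had a difference of -0.06 in cop1-6 that did not pass.

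**Figure D5:**
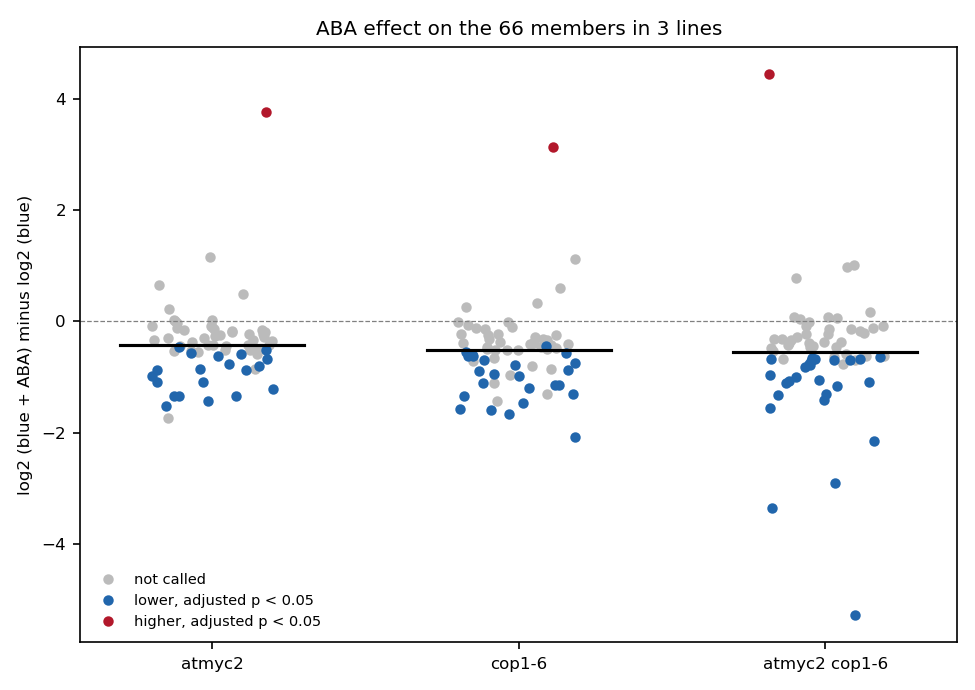
Log2 difference of blue light with ABA minus blue light for each of the 66 members (points) in atmyc2, cop1-6 and the double mutant, with black bars at the medians of -0.43, -0.51 and -0.56. Blue points passed as lower (20, 24 and 26 members) and the 1 red point in each line, KIN1 and KIN2, as higher.

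These counts lean on single arrays. Calls among all probe sets tested fell as well when an array was left out, so the drops do not set the members apart. Only cop1-6 without ABA replicate 2 had more calls, among members and among all probe sets. Without atmyc2 blue light replicate 1 the atmyc2 calls went from 21 to 12, and without atmyc2 ABA replicate 1 or 2 to 11 or 9. In cop1-6, 25 calls became 15 or 11 without blue light replicate 1 or 2, and 13 without ABA replicate 1. In the double mutant, 27 became 16 without ABA replicate 2. With only the compared arrays in the fit, limma called 39 members in atmyc2 and 0 in cop1-6 (28 at an unadjusted p under 0.05). No cop1-6 call named above passed there. Among all probe sets tested, the same setting called 5904 in atmyc2 (3532 in the main fit) and 19 in cop1-6 (2178 in the main fit). Almost all cop1-6 calls were thus lost in that setting, and the 0 does not set the members apart. The cop1-6 pair with ABA also held 6 members whose arrays were more than 2-fold apart.

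With ABA present, 4 members were called different between the double mutant and atmyc2. The members' shares, 1.52% higher and 4.55% lower, were near the 0.969% and 3.77% of all probe sets tested. With only the compared arrays in the fit, 32 members were called (13 higher and 19 lower), beside 4014 of all 16196 probe sets. AT3G47650 was higher, at 1157.4 and 1322.9 against 840.9 and 820.1 (0.57 ± 0.15, limma adjusted p = 0.0347), where 0.969% of all probe sets were called higher. That call was lost under quantile normalization and under moderation without trend and robust options, which left 0 members higher. Lower were AT1G67860, 247162_at and 264054_at, where 3.77% of all were called lower. AT1G67860 had a mean of 12.6 in the double mutant, both arrays lying below the 124.9 and 81.7 of atmyc2 (-2.94 ± 0.67, or -1.93 at a pseudocount of 19.1, limma adjusted p = 0.0215), and 247162_at read 62.7 and 52.8 against 358.6 and 303.3 (-2.50 ± 0.48, limma adjusted p = 0.00634). In the double mutant, ABA had lowered AT1G67860 from 463.1 and 587.7 in blue light.

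For 264054_at the signals were 51.9 and 61.6 in the double mutant and 218.4 and 170.4 in atmyc2 (-1.75 ± 0.34, limma adjusted p = 0.00637), below its dark double mutant level of 626.4 and 773.1. In cop1-6 with ABA these probe sets differed between arrays, 247162_at at 92.9 and 505.0, and 264054_at at 70.5 and 224.1. Replicate 1 was the lower each time. Root expansin sums with ABA were 4.3 to 6.0 in the double mutant, 5.6 to 119 in cop1-6 and 96.9 to 119 in atmyc2, and their part in these differences was not tested. Without atmyc2 ABA replicate 1 no member was called (0, with 11 at an unadjusted p under 0.05 in limma), without replicate 2 there were 2 calls, and without either double mutant array 1.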

How the data were processed

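The authors deposited 1 signal intensity per probe set and array, with GCOS 1.4 named in the submitters' processing notes, from 5 µg of total RNA labelled as biotin cRNA per the labels. Array means without the extreme 2% were equal, so no scaling was added. Intensities were used as log2(signal + 1). After 64 control probe sets were set aside, 16196 with a mean over 19.1 (40th percentile) in at least 1 group were tested, and all 66 members were among them. R 4.3.3 with limma 3.58.1 fitted 12 group means (eBayes with trend and robust options). The Benjamini-Hochberg method adjusted p-values within each comparison at a threshold of 0.05, and the fit was tested on simulated data. Depth does not apply to arrays, and their number limits precision.

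Members and the 15 lists (211 loci) were chosen with earlier results of these data known. Comparisons that use the rule's 4 groups are given without a test. Named were members with 1 gene that are on a list, carry a symbol, rank among the highest or lowest of a comparison or in WT blue light, or lie at a threshold. Other members were named after their values were seen, as were examples without a gene. Gene names come from the supplied annotation and TAIR10.1. Replicate numbers did not pair samples: over 66 pairs of groups, same-numbered deviations correlated at r from -0.155 to 0.306 (8 over 0.1). Alternatives were other pseudocounts, filters, scaling, moderation, a replicate block, only the compared arrays, and each array left out. Promoter and protein sequences were not used here.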

Additional observations from a re-analysis of the deposited data

Results flagged for a closer look

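The blue light response differed between the double mutant and atmyc2 by a direct test of the difference in 65 of the 66 members (limma adjusted p under 0.05). All 65 had the smaller gain in the double mutant, whereas 19.1% of all probe sets had a smaller and 8.41% a greater gain. Of the 15 released genes lowered by ABA, 14 had a smaller gain too. The test shares its dark arrays with the comparison of cop1-6 in darkness.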

How the results depend on the processing

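Under other pseudocounts, dim filters, quantile normalization, moderation and the replicate block, every total of called members stayed within 1.5 times its main value. Small counts of higher members did not: ABA went from 1 to 3 in atmyc2 and in the double mutant with the pseudocount at the 40th percentile, and from 1 to 2 in atmyc2 after quantile normalization. For cop1-6 in blue light 1 became 2 with that pseudocount, the stricter filter or quantile normalization, and for cop1-6 with ABA 1 became 0 under quantile normalization and without trend and robust. With the replicate block the counts were 65 for cop1-6 in darkness, 66 and 50 for light in atmyc2 and the double mutant, 65 for the difference of light effects, 20, 24 and 27 for ABA in atmyc2, cop1-6 and the double mutant, 2 for cop1-6 in blue light and 5 with ABA; the numbers do not pair the samples. With only the compared arrays in the fit, ABA calls were 39 in atmyc2 and 0 in cop1-6 (28 at an unadjusted p under 0.05). Among all probe sets tested, 5904 and 19 were called there, so the 0 does not set the members apart. In the same setting cop1-6 calls with ABA were 32, beside 4014 of all probe sets tested. Fewer arrays then estimate the spread. Leaving out each array in turn gave 64 to 65 calls for cop1-6 in darkness, 65 to 66 and 49 to 52 for light in atmyc2 and the double mutant, 62 to 65 for the difference, 9 to 14, 11 to 29 and 16 to 24 for ABA in atmyc2, cop1-6 and the double mutant, 0 to 3 for cop1-6 under blue light, and 0 to 2 when ABA was present. In those settings with 1 array left in a group, that array is assumed to vary like the others. The rule found 186 members at 4 times and 27 at 8 times, by construction of the looser and stricter fold, 60 to 83 with 1 array left out, 46 and 91 with a floor of 40 and 10, 51 with an ABA limit of 2, and 48 after quantile normalization. For 24 fold changes, those of the 12 members with 1 gene named by the rule in cop1-6 darkness and in atmyc2 light, all 288 alternatives kept direction and call; members in the other comparisons were followed only through these counts. Low dark signal limits the size of folds for the 10 members with a dark WT mean under 20.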
